A study of Arabidopsis thaliana with 27 samples.

Results

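Replicates of 1 treatment are usually read as repeats. In the fit used here for the Arabidopsis root cortex, more genes differed between libraries numbered 3 and 1 than between labels Pep1 and mock. The 3 cortex libraries numbered 3 (mock, flg22 and Pep1) are set here against the 3 numbered 1 with the same labels, 6 of 27 libraries in all, chosen by their titles. RNA was sequenced from cells sorted by fluorescence from 3 Arabidopsis lines in Col-0, whose green fluorescent protein (GFP) marks the cortex (pCORTEX:GFP), the non-hair epidermis (pGL2:GFP) or the xylem-pole pericycle (E3754). Whole roots were treated before the cells were freed from their walls and sorted, so the cortex was exposed within the intact organ and then went through wall digestion. The labels name no other genetic change in the lines, and each line marks its cells through a single promoter or enhancer trap. The treatments are mock (water), flg22, which is a fragment of the flagellin of bacteria, and Pep1, which is a damage signal made by the plant itself. The labels give seedlings of 10 d, 1 mM of elicitor and 1 h, while the design text gives 1 µM and 2 h.

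No label says what differed between the numbers. The paper describes them as independent biological experiments and entered the replicate in its model as a batch term. The labels do not say whether the numbers came from separate cultures. The number may therefore carry the real treatment, a day of growth or sorting, or something else, and these cannot be told apart here. If each number was a single experiment, the tests below do not measure the spread between experiments. The model used below holds both terms over the 9 cortex libraries (edgeR quasi-likelihood test, adjusted p under 0.05). In it 2017 of 16356 tested genes differed between numbers 3 and 1. Between labels, 42 differed for Pep1 against mock and 0 for flg22 against mock. From DESeq2 with batch and condition terms, the paper reports many more Pep1 and flg22 genes in the cortex. Why the counts differ was not tested. A gene is said to have risen, fallen or been called below only where it passed the edgeR test. Levels are CPM, read counts scaled by library size and TMM factor, and the 3 values of a number stand in the order mock, flg22, Pep1. With no gene length in the unit, CPM are not compared between genes.

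Many of the gene groups described here belong to pattern-triggered immunity. Plant cells detect microbial or damage peptides through receptor kinases at the plasma membrane, which act through co-receptors, cytoplasmic kinases, an oxidative burst and MAP kinases on WRKY and MYB transcription factors. In Arabidopsis roots 1 output is the turnover of tryptophan into indole glucosinolates, sulfur-rich compounds that are hydroxylated, methylated, hydrolysed and exported as defence compounds. Aquaporins, the water channels of the plasma membrane and the vacuole, set how easily water crosses the cortex.

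Cortex libraries numbered 3 held 14149915, 14980142 and 6849560 gene counts, against 10022956, 5376401 and 5742286 in those numbered 1. Among the 6, the pairs labelled mock and flg22 each shared a sequencing pool, whereas the Pep1 pair did not. No 2 libraries were duplicates. On the first principal component (32.6% of the variance) the number 3 libraries lay at 76.8, 42.5 and 50.3, the number 1 libraries at -27.9, -102.9 and -70.7, and the number 2 libraries between, at -12.8 to 24.6. Mitochondrial genes took 21.9 to 26.9% of gene counts at number 3 and 29.4 to 31.3% at number 1 (exact permutation p = 0.1, the smallest that 3 against 3 allows), but as a share of all reads in the file the difference turned to +0.31 percentage points (exact permutation p = 0.6). Reads assigned to a gene were 29.2 to 34.9% at number 3, against 21.8 to 26.3% at number 1 (exact permutation p = 0.1). The part that these shares have in the results was not tested. With every library thinned to the same total, 989 genes were higher and 944 lower.

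Every marker list, that of the cortex included, had a lower mean sum at number 3 than at number 1. Of the 4 cortex markers, AT1G62500 was at 0 in all 9 cortex libraries, and their summed level was 194 to 351 CPM at number 3, against 264 to 427 CPM at number 1, with overlap (exact permutation p = 0.2). None of the 3 that were tested was called, though all 3 had a negative log2 fold change (median -0.49). Among them AT1G62510 had 16.1, 37.1 and 12.6 CPM at number 3, against 39.5, 91.4 and 42.1 CPM at number 1. Summed root hair markers were 1037 to 1057 CPM at number 3 and 1060 to 1512 CPM at number 1 (exact permutation p = 0.1), with 1 called lower, ROP2, a GTPase of tip growth (edgeR adjusted p = 0.0606 within the shared pools, mock and flg22 only). Summed non-hair markers were 100.5 to 139 CPM at number 3 and 130 to 150 CPM at number 1 (exact permutation p = 0.3), with 1 called lower, WER (MYB66), which sets non-hair fate in the epidermis. Endodermis markers summed to 18.8 to 26.2 CPM at number 3 and 20.7 to 37 CPM at number 1 (ESB1 at 0 throughout), pericycle markers to 153 to 214 and 206 to 260 CPM, and xylem and phloem markers to 29.7 to 58.9 and 49.8 to 83.9 CPM, in the same order of numbers, with none called. Root cap markers summed to 3.35 to 11.1 CPM at number 3 and 4.13 to 36.8 CPM at number 1, and photosynthetic markers to 19.4 to 41.3 and 28.3 to 62.4 CPM. Few members made up most of some sums, given here as means over the 9 cortex libraries. The root hair sum was mostly LRX2, MRH5, CSLD3 and ROP2 (320, 376, 316 and 104 CPM). COBL9, RHD6 and EXPA7 of that list averaged 2.5, 3.9 and 0.36 CPM. The non-hair sum was mostly CPC and TTG1 (55 and 28.6 CPM, with GL2 at 4.07 CPM), the pericycle sum ARR12 and HMA2 (125.9 and 51.3 CPM). A sum does not give a share of cells. Whether other cells contributed to the results was not tested. In bulk libraries fewer cells of a type and less RNA per cell cannot be told apart.

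Across all genes, 1088 (6.65%) were higher at number 3 and 929 (5.68%) lower, 12.3% in either direction, with a median log2 fold change of -0.01 over all tested genes. Of the higher genes, 892 exceeded a log2 fold change of 1 and 222 exceeded 3. Of the lower genes, 792 fell by over 1 on the log2 scale and 83 by over 3. The same-label pairs all moved in the direction of the call for 2015 of the 2017. In 1937 of them the groups did not overlap, as in 28.4% of all tested genes. The counts depended on 4 libraries, since 649 were higher and 541 lower without mock 3, 687 and 484 without flg22 1, 681 and 593 without flg22 3, and 723 and 404 without Pep1 3. Within the shared pools (mock and flg22 only) 590 were higher and 223 lower, and 0 called genes changed sign under any setting.

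Genes that modify indole glucosinolates held some of the rises. Of 9 tested genes that modify the side chain, hydrolyse the product or export it, 6 rose and 0 fell, with a list median of 2.18, where 6.65% of all tested genes rose and 5.68% fell. CYP81F2 (AT5G57220), the cytochrome P450 that hydroxylates the indole ring, had 305, 156 and 68 CPM at number 3, against 0.516, 2.77 and 0.551 CPM at number 1. These groups did not overlap (log2 fold change 7.19, SE 0.66, edgeR adjusted p = 0.000104). IGMT2 (AT1G21120), a methyltransferase that acts after it, had 964, 807 and 533 CPM at number 3, against 8.12, 26.3 and 9.37 CPM at number 1 (log2 fold change 5.85, SE 0.40, edgeR adjusted p = 1.84e-05). Its tandem neighbours on chromosome 1, IGMT3 and IGMT4, rose by log2 4.82 and 6.31, while IGMT1 (1.42, edgeR adjusted p = 0.222) and the more distant IGMT5 (-1.22, edgeR adjusted p = 0.0733) did not pass. The IGMT copies are alike enough for reads to be split or dropped between them, so their single values are uncertain. Reads that aligned to several places, which were not assigned, made up 53.7 to 65.4% of these libraries. PEN3 (AT1G59870), a plasma membrane transporter of indole defence compounds, had the highest mean CPM of the genes that rose, with 8659, 7486 and 7781 CPM at number 3, against 1124, 2129 and 2222 CPM at number 1. Its libraries were apart by more than their spread (log2 fold change 2.18, SE 0.24, edgeR adjusted p = 0.000284), and PEN2, the myrosinase that hydrolyses these glucosinolates, rose by log2 1.45.

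**Figure D1:**
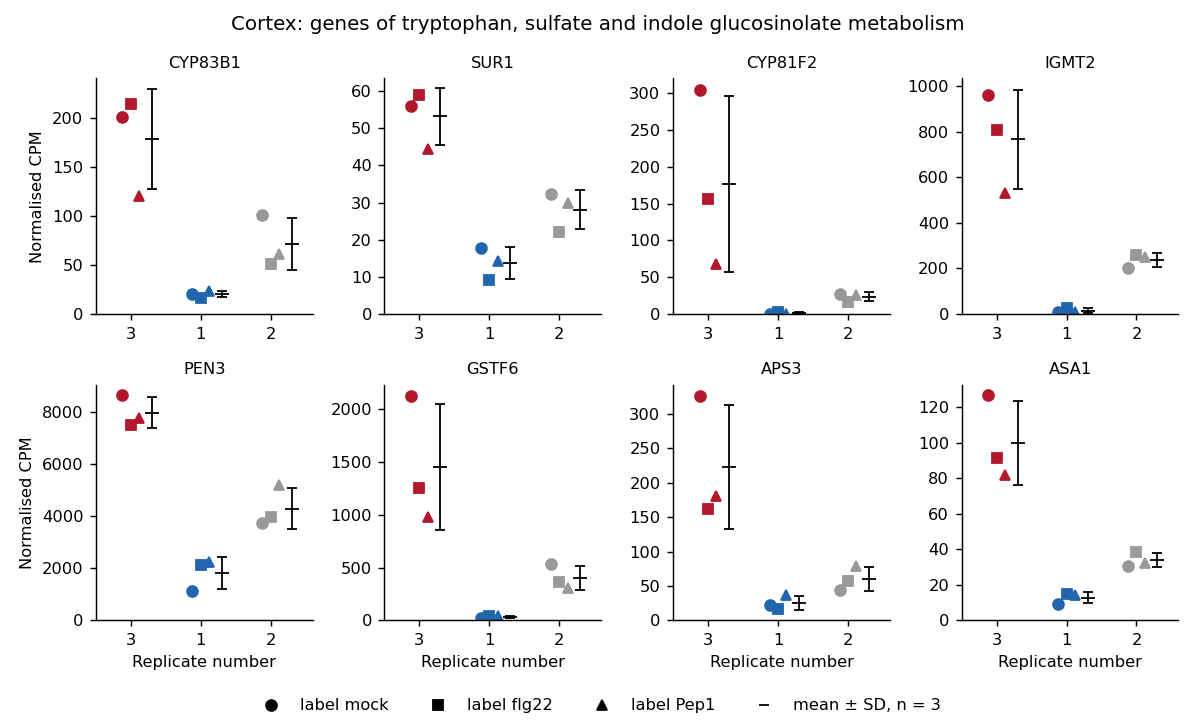
Normalised CPM (y axis) of 8 genes of tryptophan, sulfate and indole glucosinolate metabolism in each cortex library by replicate number (x axis), with symbols for the labels and bars for mean ± SD of 3 libraries. In every panel all 3 number 3 libraries lie above all 3 number 1 libraries, and for CYP81F2 the number 3 libraries run from 68.0 to 305 CPM.

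Promoters of genes on both sides of the comparison are printed because a motif differed in share between them. The W-box, the site that WRKY factors bind, was searched on both strands as TTGACC or TTGACT in the 250 bases before each annotated gene start (TAIR10.1 genome of RefSeq, 16344 promoters). It was present in 47.0% of the promoters of genes that rose, in 23.9% of those that fell and in 29.6% of all tested. Capitals mark W-boxes, which read GGTCAA or AGTCAA where they lie on the other strand. In this window CYP81F2 has 2, IGMT2 1, GSTF7 3 and PEN3 1, while MYB51 and the genes TIP2;3 and AGP22, both of which fell, have 0.
CYP81F2 (chr5:23187590-23187839, plus strand): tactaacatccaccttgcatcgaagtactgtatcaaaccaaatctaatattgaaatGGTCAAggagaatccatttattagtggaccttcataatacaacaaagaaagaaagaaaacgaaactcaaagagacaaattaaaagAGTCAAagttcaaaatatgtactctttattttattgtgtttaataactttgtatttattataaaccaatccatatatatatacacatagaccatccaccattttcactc
IGMT2 (chr1:7396824-7397073, minus strand): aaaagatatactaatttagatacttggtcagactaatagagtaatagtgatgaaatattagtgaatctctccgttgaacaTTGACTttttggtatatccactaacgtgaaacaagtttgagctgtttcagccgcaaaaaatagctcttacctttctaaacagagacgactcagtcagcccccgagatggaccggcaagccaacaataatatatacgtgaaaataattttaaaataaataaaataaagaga
GSTF7 (chr1:659981-660230, minus strand): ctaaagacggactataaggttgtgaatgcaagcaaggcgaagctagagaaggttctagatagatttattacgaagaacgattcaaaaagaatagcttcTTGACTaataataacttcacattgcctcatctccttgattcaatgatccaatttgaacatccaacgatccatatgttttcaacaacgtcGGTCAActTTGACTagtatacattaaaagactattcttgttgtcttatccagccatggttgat
PEN3 (chr1:22034173-22034422, plus strand): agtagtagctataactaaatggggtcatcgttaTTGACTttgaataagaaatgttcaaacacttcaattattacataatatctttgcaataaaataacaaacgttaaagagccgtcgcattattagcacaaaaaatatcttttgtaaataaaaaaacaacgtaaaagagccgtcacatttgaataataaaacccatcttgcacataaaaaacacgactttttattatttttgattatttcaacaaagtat
MYB51 (chr1:6389149-6389398, plus strand): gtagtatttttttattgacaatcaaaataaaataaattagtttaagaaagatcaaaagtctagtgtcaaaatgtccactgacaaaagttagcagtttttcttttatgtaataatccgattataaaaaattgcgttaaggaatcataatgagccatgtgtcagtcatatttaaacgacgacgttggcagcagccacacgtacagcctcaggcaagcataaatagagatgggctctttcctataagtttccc
TIP2;3 (chr5:19249623-19249872, minus strand): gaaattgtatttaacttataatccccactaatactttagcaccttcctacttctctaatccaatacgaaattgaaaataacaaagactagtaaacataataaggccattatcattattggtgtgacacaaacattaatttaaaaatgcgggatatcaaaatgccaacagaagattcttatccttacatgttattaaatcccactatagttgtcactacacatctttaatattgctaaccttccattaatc
AGP22 (chr5:21603319-21603568, plus strand): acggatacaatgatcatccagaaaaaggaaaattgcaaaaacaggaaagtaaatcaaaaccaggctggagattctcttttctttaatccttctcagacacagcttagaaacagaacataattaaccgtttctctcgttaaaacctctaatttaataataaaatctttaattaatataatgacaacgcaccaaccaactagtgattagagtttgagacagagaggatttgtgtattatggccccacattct

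A match is a run of letters and not a proven binding site, and no match says only that these letters are absent from this window. Other motifs were searched the same way, and matches to different motifs may overlap. Site II (TGGGCC), frequent before genes of protein synthesis, was in 11.9% of promoters of genes that rose, 8.29% of those that fell and 16.6% of all. The telo-box (AAACCCTA) was in 1.38%, 1.4% and 3.3% of the same sets. The CGCG element (CGCGTT), bound by calmodulin-binding factors, was in 4.5% of promoters of genes that rose, 2.15% of those that fell and 2.99% of all, and the GCC-box (GCCGCC) of ERF factors in 2.94%, 1.29% and 1.98%. Shares of the G-box (CACGTG) were 8.46%, 6.89% and 7.65%, those of the TGA core (TGACGT) 9.74%, 7.0% and 7.86%, and those of the evening element (AAAATATCT) 2.21%, 2.05% and 2.37%.

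**Figure D2:**
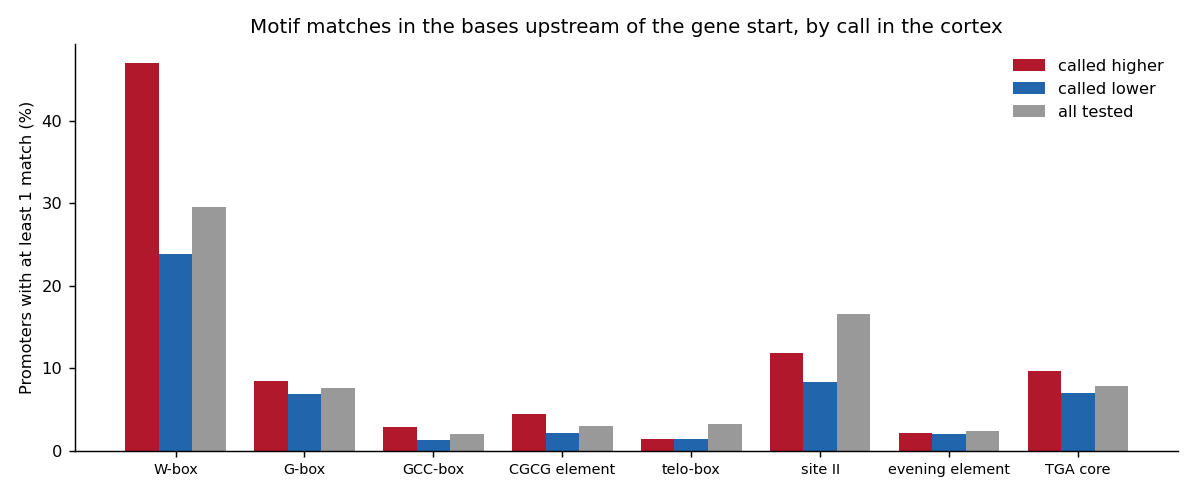
Percentage of promoters (y axis) with at least 1 match to each motif (x axis) among genes called higher at number 3, genes called lower and all tested genes in the cortex. The W-box shows the widest gap, 47.0% of the promoters of genes that rose against 29.6% of all.

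Synthesis came next in order of the pathway. Of 11 tested genes of indole glucosinolate synthesis and its regulators, 6 rose and 1 fell (median 1.53). MYB51 (AT1G18570), a transcription factor that activates the pathway, had 81, 60.3 and 33.2 CPM at number 3, against 5.54, 2.21 and 6.06 CPM at number 1 (log2 fold change 3.67, SE 0.42, edgeR adjusted p = 0.000336). Its relative MYB34 (AT5G60890) moved the other way (2.39, 5.36 and 1.89 CPM at number 3, against 20.8, 21 and 9.65 CPM at number 1; log2 fold change -2.39, SE 0.53, edgeR adjusted p = 0.0126) and is named here after its values were seen. CYP83B1 (AT4G31500), which oxidises indole-3-acetaldoxime into the glucosinolate branch, had 201, 215 and 120.5 CPM at number 3, against 20.8, 16.6 and 23.1 CPM at number 1, with no overlap (log2 fold change 3.14, SE 0.30, edgeR adjusted p = 0.000126). SUR1 (AT2G20610), the C-S lyase of the next steps, had 55.9, 59.1 and 44.5 CPM at number 3, against 17.7, 9.13 and 14.3 CPM at number 1, a log2 fold change of 1.99 ± 0.28 (SE). Neither CYP79B2 (1.53 ± 0.99, edgeR adjusted p = 0.381), which makes the aldoxime from tryptophan, nor UGT74B1 (0.57 ± 0.32, edgeR adjusted p = 0.302), which adds the glucose, passed the test.

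Tryptophan and sulfur are precursors of these compounds. Of 11 tested genes of tryptophan synthesis, 6 rose and 0 fell (median 1.29), but only 2 rose without mock 3 and 3 without flg22 1. ASA1 (AT5G05730), the anthranilate synthase subunit that commits chorismate to tryptophan, had 127, 91.2 and 81.9 CPM at number 3, against 9.15, 14.9 and 14.3 CPM at number 1 (log2 fold change 2.99, SE 0.29, edgeR adjusted p = 0.000145). TSB1 (AT5G54810), the last enzyme of the pathway, had 541, 311 and 390.0 CPM at number 3, against 80.6, 60.9 and 77.2 CPM at number 1 (log2 fold change 2.49, SE 0.21, edgeR adjusted p = 6.89e-05). Sulfate uptake and assimilation, which supplies the sulfur of glucosinolates and glutathione, had 9 of 17 tested members higher and 2 lower (median 1.28). APS3 (AT4G14680), which activates sulfate, had 326, 161 and 180.1 CPM at number 3, against 21.7, 17.2 and 37.2 CPM at number 1 (log2 fold change 3.19, SE 0.35, edgeR adjusted p = 0.000253), and APS1 rose by log2 2.24. The root sulfate transporter SULTR1;2 (AT1G78000) had 149, 106 and 93.6 CPM at number 3, against 26, 32.9 and 16.5 CPM at number 1 (log2 fold change 2.21, SE 0.26, edgeR adjusted p = 0.000393). Both steps of glutathione synthesis rose, GSH1 by log2 1.56 and GSH2 by 1.56, whereas APS4 (-0.91) and the transporter AST56 (-1.29) fell. GSH1, APS4 and AST56 were chosen after their values were seen. The 2 falls were 0 without mock 1, mock 2, mock 3, flg22 1, Pep1 1 or Pep1 3 and within the shared pools, and 1 without flg22 3 or Pep1 2.

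Camalexin and 4-hydroxyindole-3-carbonyl nitrile (4-OH-ICN) are other defence products of indole-3-acetaldoxime, and 4 of 4 tested members of their list rose (median 4.33). AT1G26380, an oxidase of the 4-OH-ICN branch, had 49.3, 26.9 and 18.7 CPM at number 3, against 0.129, 0 and 0 CPM at number 1. With 1 count in all number 1 libraries together, its depth-scaled ratio was 513 (95% counting interval 91.8 to 20300). CYP71A12, which dehydrates the aldoxime, rose by log2 2.08 ± 0.56 (SE; edgeR adjusted p = 0.0346), and its near copy may share its reads. It did not pass without mock 3, flg22 1, flg22 3, Pep1 1 or Pep1 3 (edgeR adjusted p = 0.0598 to 0.181) nor within the shared pools (edgeR adjusted p = 0.119). Of the 14 tested berberine bridge enzyme-like oxidases, the family of AT1G26380, 8 rose and 1 fell (median 1.85).

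Glutathione transferases, which conjugate reactive compounds to glutathione, had 15 of 34 tested tau and phi members higher and 1 lower (median 0.95), and 9 higher without mock 1 or without mock 3. GSTF6 (AT1G02930) had 2126, 1255 and 981 CPM at number 3, against 24, 41.2 and 38 CPM at number 1 (log2 fold change 5.32, SE 0.35, edgeR adjusted p = 1.68e-05). GSTF7 (AT1G02920) beside it had 281, 153 and 86.1 CPM at number 3, against 1.8, 3.32 and 1.1 CPM at number 1 (log2 fold change 6.38, SE 0.40, edgeR adjusted p = 1.68e-05). These are close copies, so the split of reads between them is uncertain. GSTU4, GSTU3 and GSTU1 form a run of neighbours on chromosome 2 that rose by log2 2.24 to 3.36. Among 21 tested genes of mitochondrial and xenobiotic stress, 11 rose and 0 fell (median 1.73), from AOX1A, the alternative oxidase (1.09), to DTX1, a multidrug efflux carrier. DTX1 (AT2G04040) had 123, 39.5 and 34.4 CPM at number 3, against 0.258, 0 and 0 CPM at number 1, 2 counts in all number 1 libraries, and a depth-scaled ratio of 534 (95% counting interval 147 to 4410). UGT73D1, a glycosyltransferase, had 3 counts at number 1 and a ratio of 94.1 (95% counting interval 32 to 458).

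The perception machinery rose in part. Of 20 tested pattern receptors and co-receptors, 11 rose and 1 fell (median 0.80), and 7 rose without mock 1, 6 without mock 3 and 7 within the shared pools. FLS2 (AT5G46330), the receptor of flg22, had 94.7, 94.4 and 86.9 CPM at number 3, against 10.7, 9.69 and 16.8 CPM at number 1. The 3 number 3 libraries lay close together and well above the number 1 libraries, whatever their label (log2 fold change 2.94, SE 0.26, edgeR adjusted p = 7.5e-05). The chitin receptor CERK1 rose by log2 1.99 ± 0.19 (SE), the malectin-like kinase IOS1 by 2.02 ± 0.21 and the co-receptor BAK1 by 0.68 ± 0.17. The Pep1 receptors did not pass: PEPR1 differed by 0.28 ± 0.22 (edgeR adjusted p = 0.492) and PEPR2 by -0.17 ± 0.27 (edgeR adjusted p = 0.764). EFR, the receptor of bacterial elongation factor Tu, was at -0.79 ± 0.72 (edgeR adjusted p = 0.551). BAK1, PEPR1, PEPR2 and EFR were chosen after their values were seen. Of the wall-associated kinases, which sense pectin, 5 of 7 tested rose and 0 fell (median 1.76), with WAKL2, WAKL4 and WAKL5 side by side on chromosome 1.

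The list of receptor-proximal and MAP kinase signaling had 12 of 33 tested members higher and 0 lower (median 0.58), while 21 were not called. The higher count was 7 without mock 3, without flg22 3 and within the shared pools. MPK5 (AT4G11330), a MAP kinase, had 61.5, 47.1 and 47.9 CPM at number 3, against 2.45, 11.1 and 8.82 CPM at number 1 (log2 fold change 2.95, SE 0.46, edgeR adjusted p = 0.00184). PUB24 (AT3G11840), a ligase that dampens immune signaling, had 235, 170.3 and 140.0 CPM at number 3, against 4.38, 8.3 and 21.5 CPM at number 1 (log2 fold change 4.2, SE 0.47, edgeR adjusted p = 0.000317). The main MAP kinases of immunity, MPK3 and MPK6, rose by log2 1.05 and 0.69, while MPK4 (0.48, edgeR adjusted p = 0.36) did not pass; these 3 were chosen after their values were seen. RBOHD (AT5G47910), the oxidase of the immune burst, had 398, 327 and 241 CPM at number 3, against 122, 193 and 151 CPM at number 1, a log2 fold change of 1.06 ± 0.24 (SE; edgeR adjusted p = 0.014). It did not pass without mock 1 (0.86, edgeR adjusted p = 0.0594), without mock 3 (0.76, edgeR adjusted p = 0.0638) or within the shared pools (1.27, edgeR adjusted p = 0.0515). In the list of secretion and penetration resistance, 8 of 21 tested rose and 0 fell (median 0.78; 5 rose without mock 3 or without flg22 3), among them the exocyst subunit EXO70E2 (3.86 ± 0.35).

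Transcriptional markers of immunity were called in part. Of 28 tested pattern-triggered marker genes, 17 rose and 1 fell (median 2.07), while 25 had a positive and 3 a negative log2 fold change. The peroxidase PER4 (AT1G14540) had 670.4, 435 and 159 CPM at number 3, against 18.9, 18.5 and 24 CPM at number 1 (log2 fold change 4.21, SE 0.40, edgeR adjusted p = 0.000125). AT5G64120, another class III peroxidase, had 487, 289 and 194 CPM at number 3, against 2.06, 13 and 3.31 CPM at number 1 (log2 fold change 5.85, SE 0.56, edgeR adjusted p = 0.000126). FRK1 (AT2G19190), the receptor-like kinase widely used as an early marker, had 2.69, 3.73 and 0.420 CPM at number 3, against 0.644, 0 and 0 CPM at number 1, with 26.4, 8.78 and 17.3 CPM at number 2, and did not pass (edgeR adjusted p = 0.0701). The early WRKY genes WRKY33 (0.44 ± 0.22, edgeR adjusted p = 0.236), WRKY40 (0.54 ± 0.18, edgeR adjusted p = 0.0845) and WRKY53 (0.34 ± 0.23, edgeR adjusted p = 0.401) did not pass either. The marker that fell was PHI-1 (-2.03 ± 0.31, SE). PHI-1, WRKY40 and WRKY53 were chosen after their values were seen.

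Among 54 tested WRKY genes 13 rose and 2 fell (median 0.40), and within the shared pools 8 rose and 0 fell. WRKY8 (AT5G46350) had 14.6, 10.8 and 9.45 CPM at number 3, against 0.644, 0.554 and 0 CPM at number 1 (log2 fold change 4.73, SE 0.67, edgeR adjusted p = 0.00113). WRKY28 (AT4G18170) had 98.1, 79.4 and 57.7 CPM at number 3, against 3.74, 9.96 and 16 CPM at number 1 (log2 fold change 3.1, SE 0.45, edgeR adjusted p = 0.00122). WRKY30 rose by log2 2.83 ± 0.34 (SE) and WRKY22 by 1.59 ± 0.25, whereas WRKY18 (-1.39 ± 0.24) and WRKY57 (-2.13 ± 0.43), named after their values were seen, fell. Of 14 tested NAC factors of stress 4 rose and 0 fell, with 2 higher without mock 3, flg22 1 or Pep1 3 and 1 within the shared pools. NAC042 (AT2G43000), a regulator of camalexin genes, had 29.1, 23.5 and 11.1 CPM at number 3, against 0, 0 and 0 CPM at number 1. Against a floor of 3 counts over the number 1 libraries it was at least 117-fold higher.

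**Figure D3:**
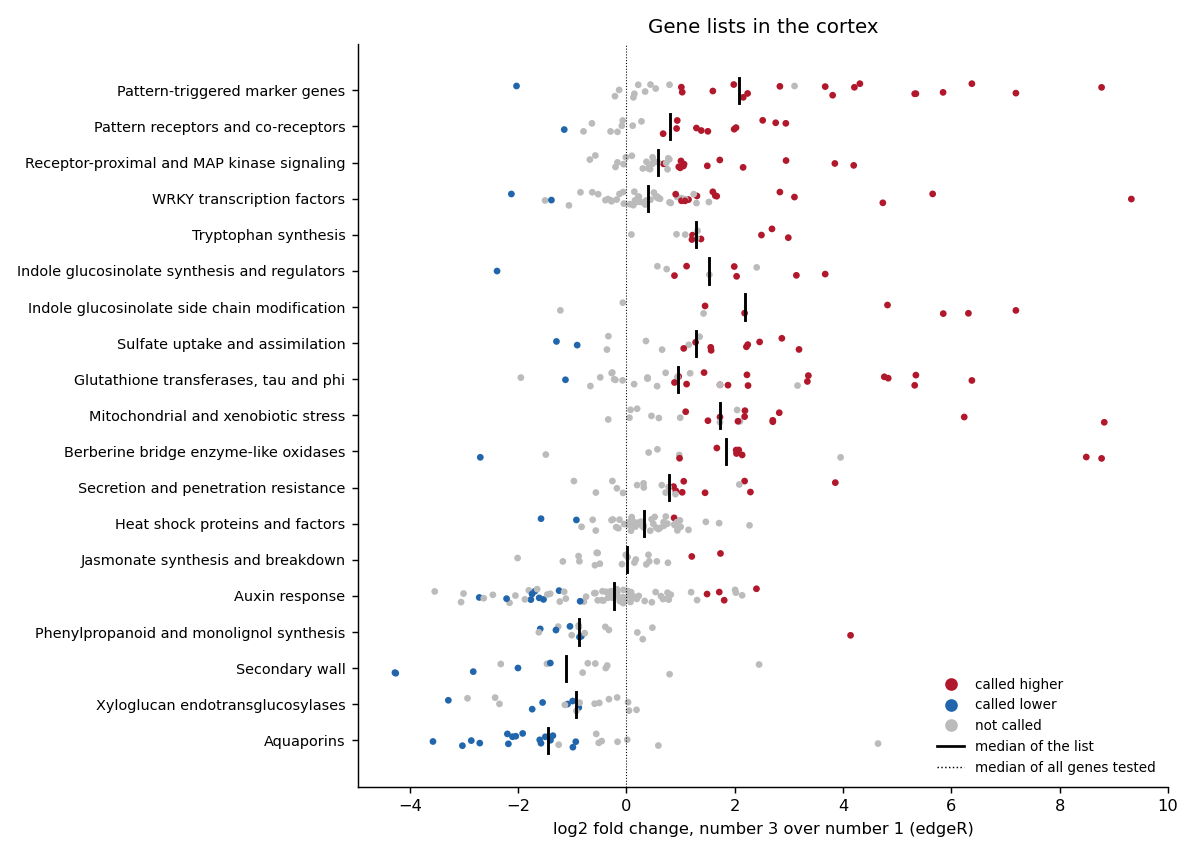
Log2 fold change of number 3 over number 1 (x axis) for every tested member of 19 gene lists (rows), coloured by call, with the median of each list as a bar and the median of all tested genes as a dotted line. The medians of the tryptophan, sulfate and glucosinolate lists lie to the right of the dotted line, members of the heat shock and jasmonate lists lie on both sides of it, and 16 of 24 aquaporins are called lower.

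Counts in the lists of defence hormones stand beside 6.65% of all tested genes higher and 5.68% lower. Of 18 salicylic acid genes tested, 4 rose (22.2%) and 3 fell (16.7%), with a median of 0.10. The lower count was 1 without mock 3 or flg22 1 and 0 within the shared pools. CBP60G, an activator of salicylic acid synthesis, rose by log2 2.26 ± 0.28 (SE), and the receptor NPR1 by 1.26 ± 0.22. The synthesis genes EDS16 (-1.58 ± 0.35) and EPS1 (-2.68 ± 0.55) fell, EDS16 being named after its values were seen, and EPS1 did not pass without mock 3 (-2.46, edgeR adjusted p = 0.0548). Within the shared pools neither EPS1 (edgeR adjusted p = 0.0884) nor NPR1 (edgeR adjusted p = 0.0519) passed. Of 20 tested jasmonate synthesis and breakdown genes, 2 rose (10%) and 0 fell (median 0.00), and 1 rose without flg22 1. Precursors of immune peptides had 0 of 4 tested higher and 1 lower, PROPEP4 (-1.41 ± 0.21, SE), and PROPEP1, PROPEP2 and PROPEP3 did not pass. Ethylene genes had 4 of 20 tested higher (20%) and 1 lower (5%), with 2 higher without mock 3, without Pep1 3 and within the shared pools. The 47 tested heat shock genes had 1 higher (2.13%) and 2 lower (4.26%), with a median of 0.32. The lower count was 1 without flg22 3 or Pep1 1 and within the shared pools. Of 22 tested genes that the paper names, 20 rose and 0 fell (median 4.39), but the study chose them on these libraries, so this count is not independent evidence.

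Other genes with large rises were named by the size of their change or their level. CYP706A1 (AT4G22690), a cytochrome P450, had 351, 241 and 159 CPM at number 3, against 0.902, 2.49 and 4.68 CPM at number 1 (log2 fold change 6.7, SE 0.52, edgeR adjusted p = 4.32e-05). ACA12 (AT3G63380), a calcium pump, had 68, 29.4 and 16 CPM at number 3, against 0.258, 0 and 0.276 CPM at number 1, a depth-scaled ratio of 210 (95% counting interval 71.7 to 1020). NIT4, the nitrilase that detoxifies cyanoalanine, rose by log2 4.49 ± 0.60 (SE). The xylem nitrate transporter NRT1.8 rose by log2 2.51 ± 0.30. It is 1 of 4 higher members among 18 tested nitrate genes (22.2%, against 6.65% of all tested genes), with 0 lower. Of that list 10 members were negative, and its median was -0.26. The higher count was 2 without flg22 1, flg22 3 or Pep1 3 and within the shared pools. Genes of high CPM that rose included GDH2 (AT5G07440), a glutamate dehydrogenase, with 5399, 4271 and 5527 CPM at number 3, against 1644, 2248 and 3349 CPM at number 1. PCK2 (AT5G65690), a phosphoenolpyruvate carboxykinase, had 3859.5, 2104 and 2618 CPM at number 3, against 708, 733 and 1541 CPM at number 1 (log2 fold change 1.58 ± 0.33, SE). Without flg22 1 neither GDH2 (edgeR adjusted p = 0.0623) nor PCK2 (edgeR adjusted p = 0.0649) passed. Genes of both directions were of ordinary length, with median exonic lengths of 1809 bases (higher), 1824 bases (lower) and 1836 bases (all tested).

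Aquaporins had the largest share of falls among the lists. Of 24 tested members 16 fell and 0 rose, with a median of -1.45. Without any 1 library 13 to 16 fell, and 9 fell within the shared pools. TIP2;3 (AT5G47450), a channel of the vacuolar membrane, had 27.8, 39.1 and 8.82 CPM at number 3, against 167, 201 and 117 CPM at number 1 (log2 fold change -2.87, SE 0.33, edgeR adjusted p = 0.000365). TIP2;2 (AT4G17340) had 68.3, 153 and 32.7 CPM at number 3, against 573, 771 and 456 CPM at number 1 (log2 fold change -3.03, SE 0.36, edgeR adjusted p = 0.000432). The highest number 3 library lay below the lowest number 1 library for both. PIP2;3 (RD28, AT2G37180), a channel of the plasma membrane, had 9.25, 29.4 and 6.09 CPM at number 3, against 106, 198 and 131 CPM at number 1 (log2 fold change -3.57, SE 0.42, edgeR adjusted p = 0.000393). PIP1;2 (PIP1B, AT2G45960), a channel of the plasma membrane, had 3034, 3162 and 3249.9 CPM at number 3, against 3898, 7109.6 and 7586 CPM at number 1. Its smaller difference also passed (log2 fold change -0.94, SE 0.21, edgeR adjusted p = 0.015), but not without flg22 1, flg22 3, Pep1 1 or Pep1 3 (-0.76 to -0.90, edgeR adjusted p = 0.0736 to 0.124) nor within the shared pools (-0.76, edgeR adjusted p = 0.237). TIP1;1 (GAMMA-TIP, AT2G36830) had 225, 403 and 136 CPM at number 3, against 1262, 1439.5 and 714 CPM at number 1, a log2 fold change of -2.2 ± 0.29 (SE). All 11 tested PIP genes fell, by 0.94 to 3.57 on the log2 scale, whereas TIP4;1 (0.59), NIP5;1 (-0.46) and SIP1A (0.01), named after their values were seen, did not pass. Several PIP and TIP genes are near copies, and reads common to a pair are not counted for either.

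**Figure D4:**
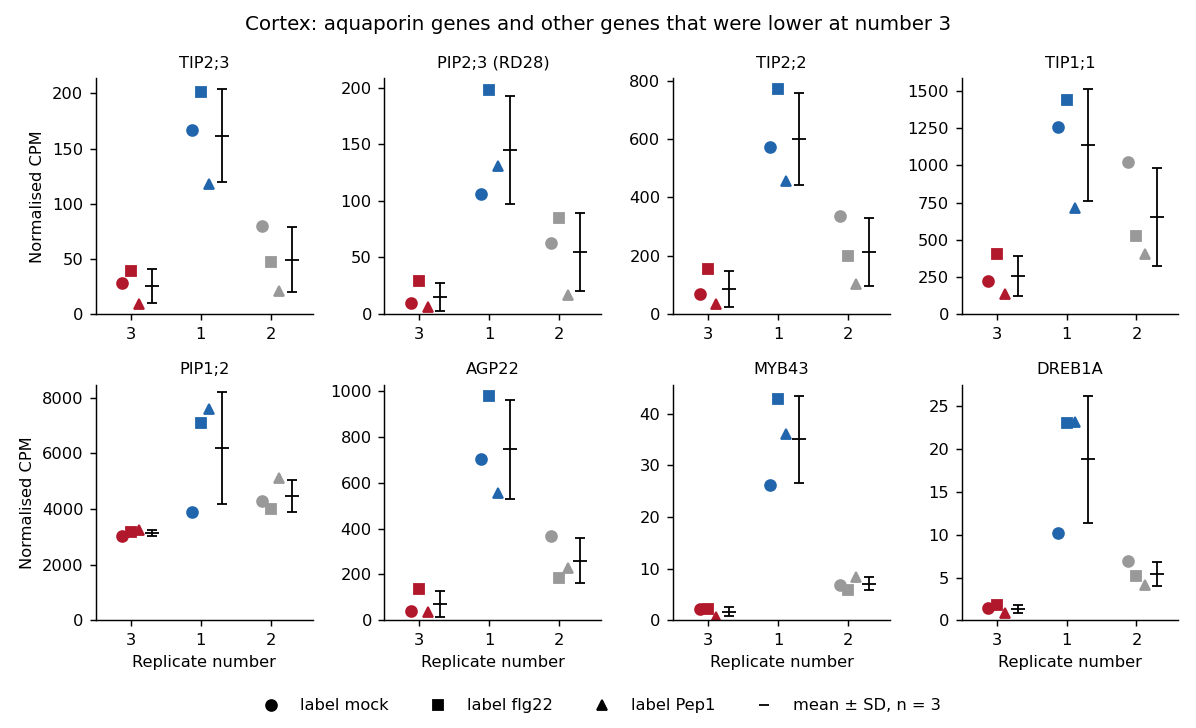
Normalised CPM (y axis) of 5 aquaporin genes and 3 other genes in each cortex library by replicate number (x axis), with symbols for the labels and bars for mean ± SD of 3 libraries. All 3 number 3 libraries lie below all 3 number 1 libraries in every panel, and at number 3 the flg22 library is the highest for TIP2;3 at 39.1 CPM.

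Cell wall lists had part of their members lower, and their counts stand beside 5.68% of all tested genes lower and 6.65% higher. Of 19 tested xyloglucan endotransglucosylases, which remodel the wall, 6 fell and 0 rose (median -0.92). That count rested on single libraries: 0 fell without flg22 1 and within the shared pools, 1 without Pep1 3, 2 without flg22 3, 3 without mock 1, mock 2, mock 3, Pep1 1 or Pep1 2, and 6 without flg22 2. Secondary wall genes had 5 of 14 tested lower and 0 higher (median -1.11), and 3 lower without mock 3, flg22 1 or Pep1 3 and within the shared pools. MYB43 (AT5G16600), a transcription factor of the secondary wall, had 2.29, 2.18 and 0.630 CPM at number 3, against 26.2, 42.9 and 36.1 CPM at number 1 (log2 fold change -4.28, SE 0.48, edgeR adjusted p = 0.000315). PGSIP3 (AT4G33330), a glucuronosyltransferase of xylan, had 1.69, 1.64 and 0.420 CPM at number 3, against 23.1, 36 and 8.27 CPM at number 1 (log2 fold change -4.26, SE 0.58, edgeR adjusted p = 0.000912). Phenylpropanoid and monolignol synthesis, which feeds lignin, had 5 of 17 tested lower and 1 higher (median -0.87). The falls were 0 without flg22 3, without Pep1 3 and within the shared pools, 1 without flg22 1 or Pep1 1, 3 without mock 2 and 8 without mock 1. The riser was CCR2 (AT1G80820), a cinnamoyl-CoA reductase (73.7, 32.7 and 19.9 CPM at number 3, against 1.29, 2.49 and 3.31 CPM at number 1; log2 fold change 4.14, SE 0.58, edgeR adjusted p = 0.00103). AGP22 (AT5G53250), an arabinogalactan peptide of the wall, had 40.8, 139 and 36.3 CPM at number 3, against 704, 978 and 555 CPM at number 1 (log2 fold change -3.5, SE 0.43, edgeR adjusted p = 0.000495). Primary wall genes had 3 of 20 tested lower (15%) and 0 higher, including CESA2 (-1.55 ± 0.22, SE). Expansins had 2 of 16 (12.5%) in each direction. Their lower count was 1 without mock 1, mock 3, Pep1 1 or Pep1 3 and within the shared pools.

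DREB1A (AT4G25480, CBF3), a factor of the cold response, had 1.39, 1.82 and 0.840 CPM at number 3, against 10.2, 23 and 23.1 CPM at number 1 (log2 fold change -3.74, SE 0.55, edgeR adjusted p = 0.00137). Its tandem neighbours on chromosome 4, CBF2 and CBF1, fell by 2.03 and 2.76 on the log2 scale. These 3 are close copies. Of 34 tested ERF and DREB factors, 5 rose and 4 fell, and 2 rose without mock 1, mock 3 or flg22 3, 1 without flg22 1 and 3 without Pep1 2. Auxin response genes had 9 of 77 tested lower (11.7%, against 5.68% of all tested genes) and 4 higher (5.19%, against 6.65%), with a median of -0.23. Without mock 1, mock 3, flg22 1 or Pep1 3 and within the shared pools 3 to 5 were lower, and without flg22 1, flg22 3, Pep1 1 or Pep1 3 and within the shared pools 0 to 2 were higher. Auxin transport and synthesis had 4 of 25 lower (16%) and 2 higher (8%), with 0 to 2 lower within the shared pools and without each library other than flg22 2 and Pep1 2, and 1 higher without mock 3, flg22 1 or Pep1 3 and within the shared pools. The influx carrier AUX1 fell (-0.97 ± 0.21, SE) while the efflux carrier EIR1 (PIN2) rose (0.85 ± 0.20). AUX1 did not pass without mock 3 or flg22 3 (edgeR adjusted p = 0.0761 and 0.0691), nor EIR1 without mock 3, flg22 1, flg22 3, Pep1 1 or Pep1 3 (edgeR adjusted p = 0.0524 to 0.112), and neither passed within the shared pools (edgeR adjusted p = 0.0511 and 0.132). FRU (AT2G28160, FIT), the regulator of iron uptake, had 4.58, 7.18 and 7.77 CPM at number 3, against 30.9, 37.9 and 25.4 CPM at number 1 (log2 fold change -2.31, SE 0.30, edgeR adjusted p = 0.000709). Amino acid transporters had 4 of 29 tested lower and 1 higher, with 1 or 2 lower without mock 1, mock 3, flg22 1, Pep1 1, Pep1 2 or Pep1 3 and 0 within the shared pools.

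Neighbouring genes were also compared. Among higher genes with a tested neighbour on the same strand, the next gene was also higher for 107 of 605 (17.7%), against 6.88% over all 8468 such pairs. For lower genes it was 68 of 468 (14.5%), against 5.9%. The runs include LUT1, UGT73D1, UGT73C7, AT3G53170 and NodGS on chromosome 3, 5 genes with log2 fold changes of 2.79 to 6.24. Neighbours can share reads where they overlap, and strand was not used in counting, so an antisense or overlapping gene cannot be told apart from its partner.

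The labels differed within a number as well. At number 3 the library labelled mock was the highest of the 3 for 633 (58.2%) of the genes that rose, against 36.2% of all tested genes, and CYP81F2, GSTF6 and APS3 show this order. At number 1 the same genes were highest in Pep1 for 479 (44.0%), against 31.1% of all, and in mock for 322 (29.6%), against 37.3% of all. Of the genes that fell, 612 (65.9%) were highest in the flg22 library at number 3, against 31.0% of all, and 559 (60.2%) were highest in the flg22 library at number 1, against 31.6% of all. The median log2 difference of a pair over the genes that rose was 1.9 for mock, 1.61 for flg22 and 1.33 for Pep1. For those that fell it was -1.51, -1.44 and -1.65 in the same order of labels. The pairs enter the call, so these medians are a description.

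The same number contrast was computed in both other cell types in a fit of all 27 libraries (19117 genes tested). The libraries of those cell types are not those that chose the cortex genes. CPM given from this fit are scaled over all 27 libraries, so cortex values differ from those above. In the epidermis 367 genes (1.92%) were higher at number 3 and 112 (0.586%) lower, and in the pericycle 398 (2.08%) and 268 (1.4%). In this same fit the cortex had 489 higher and 166 lower, fewer than in the fit of its 9 libraries. Of the 1088 genes higher in the cortex, 1046 (96.1%) had the same sign in the epidermis, against 50.8% of all tested genes, and 309 (28.4%) were called. In the pericycle 954 (87.7%) shared the sign, against 46.7% of all, and 243 (22.3%) were called. Of the 929 lower genes, 853 (91.8%) shared the sign in the epidermis, against 48.5% of all, with 88 (9.47%) called. In the pericycle 817 (87.9%) did, against 53.2% of all, with 141 (15.2%) called and 1 called in the opposite direction.

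IGMT2 averaged 1205 ± 114 CPM at number 3 and 35.3 ± 34.4 CPM at number 1 (SD, n = 3) in the epidermis and 607 ± 81.4 CPM at number 3 and 11.5 ± 2.84 CPM at number 1 (SD, n = 3) in the pericycle. Its log2 fold changes were 5.93 ± 0.57 in the cortex, 5.30 ± 0.56 in the epidermis and 5.75 ± 0.57 in the pericycle (SE). The cortex exceeded the epidermis by 0.62 ± 0.68 (SE, edgeR adjusted p = 1.0) and the pericycle by 0.18 ± 0.68 (SE, edgeR adjusted p = 0.977). AGP22 fell in all 3, by 3.44, 3.62 and 4.49 on the log2 scale. FLS2 values were less alike: 103 ± 8.7 CPM at number 3 and 13.3 ± 4.2 CPM at number 1 (SD, n = 3) in the cortex, where the difference passed, 81.9 ± 29.4 CPM at number 3 and 33.2 ± 24.5 CPM at number 1 (SD, n = 3) in the epidermis and 16.1 ± 13.4 CPM at number 3 and 9.63 ± 3.99 CPM at number 1 (SD, n = 3) in the pericycle, where it did not (edgeR adjusted p = 0.202 and 0.69). The difference between cell types was itself called for 1 gene between cortex and epidermis (0.00523% of those tested; RBOHD) and for 0 between cortex and pericycle (0.0%), with 498 and 1638 genes at an unadjusted p under 0.05 in edgeR and 69 and 317 called by DESeq2. The call of RBOHD was lost without cortex flg22 1, flg22 3, Pep1 1 or Pep1 3. FLS2 was not shown to differ between cell types.

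**Figure D5:**
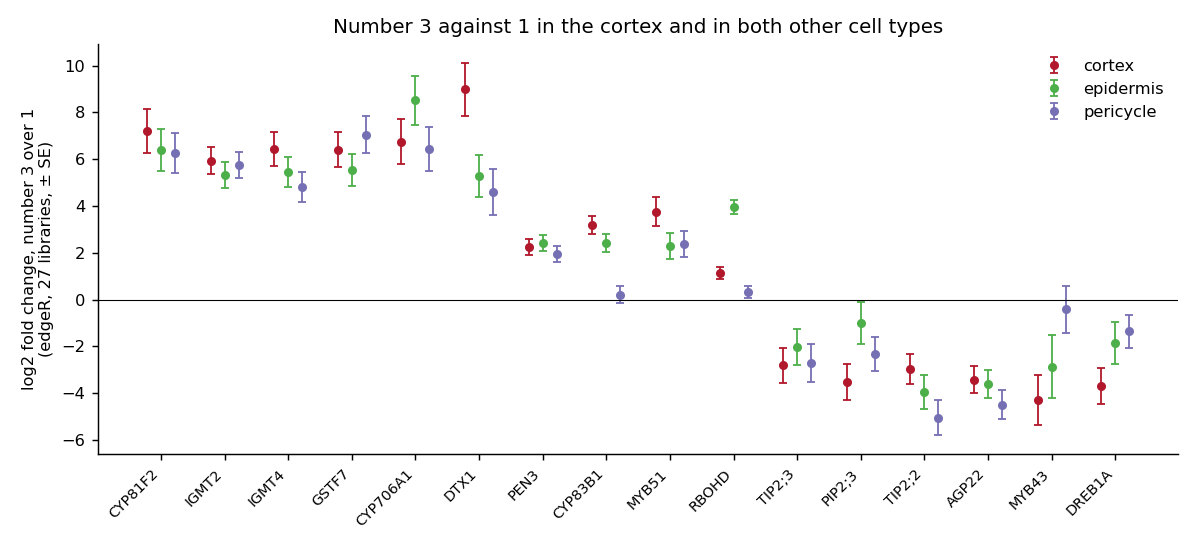
Log2 fold change of number 3 over number 1 (y axis, with SE) of 16 genes (x axis) in the cortex, the epidermis and the pericycle, from the fit of 27 libraries. CYP81F2, IGMT2, GSTF7 and PEN3 are positive and AGP22 and TIP2;2 negative in all 3 cell types, whereas RBOHD is 3.94 in the epidermis and 1.13 in the cortex.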

How the data were processed

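RNA from sorted root cells was amplified (NuGEN Ovation) and sequenced on an Illumina HiSeq. The authors deposited unscaled read counts for each gene, made by aligning reads to TAIR10 with STAR and counting them without strand with LiBiNorm, while the labels name TopHat2 2.0.14 and HTSeq. Left out were 152 mitochondrial and 133 plastid genes, entries that name no gene, 4 rRNA genes with 1 that overlaps them, and 386 ribosomal protein genes. Reads assigned to genes were 21.8 to 34.9% of a library, and those aligned to several places 53.7 to 65.4%.

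The 9 cortex libraries were fitted with edgeR 4.0.16 under R 4.3.3 (limma 3.58.1), using terms for replicate number and treatment label, TMM scaling, filterByExpr by number (minimum count 10, minimum total count 15) and the quasi-likelihood F test. Benjamini-Hochberg adjustment of p values was over all 16356 genes, and SE is the log2 fold change over the square root of F. SDs are over 3 libraries. Cell types were compared by the interaction of cell type and number over all 27 libraries. Replicates were compared by p values that measure the spread between libraries, which may be technical. The libraries of a number carry different labels. If each number is a single experiment, as the paper describes, no p value, SE or SD here measures the spread between experiments. Intervals of ratios cover counting error only. Simulated data (4 simulations of 15864 to 15913 tested genes) had 200 changed genes and no effect of the label. On them the fit found 89% of 8-fold and 12.5% of 2-fold changes, and 5.58% of its calls were unchanged genes.

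The members and the 63 gene lists were chosen with earlier results of these data known. Named genes are the 15 largest rises and 15 largest falls whose mean log2 CPM reached 2 with 1 direction in all 3 pairs, the 6 called genes of highest mean CPM in each direction, from each list the 4 members of smallest p, and every gene the paper names; exceptions are stated. Alternatives were DESeq2 1.42.0, other scalings, filters, gene sets, library sets and thinning, and leaving out each library.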

Additional observations from a re-analysis of the deposited data

Results flagged for a closer look

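The effect of replicate number on RBOHD, the NADPH oxidase of the immune oxidative burst, differed between the cortex and the epidermis in the fit of all 27 libraries. CPM here are scaled over those libraries, so cortex values differ from those of the fit of 9. RBOHD averaged 363 ± 98.9 CPM at number 3 and 166 ± 36.4 CPM at number 1 in the cortex, and 66.1 ± 9.31 CPM at number 3 and 4.33 ± 0.63 CPM at number 1 in the epidermis (SD, n = 3 each). The log2 fold change was 1.13 in the cortex and 3.94 in the epidermis, a difference of -2.81 ± 0.38 (SE, edgeR interaction test, adjusted p = 0.00926). In the pericycle RBOHD averaged 670 ± 249 CPM at number 3 and 521 ± 128 CPM at number 1, and its difference from the cortex did not pass (edgeR adjusted p = 0.55). No gene was called between cortex and epidermis without cortex flg22 1, flg22 3, Pep1 1 or Pep1 3, so the call rests on each of these libraries.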

How the results depend on the processing

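None of the genes called between numbers 3 and 1 changed sign under the 21 settings run on the fit. Fewer genes were called with only the mock and flg22 labels (590 higher, 223 lower), with all 27 libraries in 1 fit (489 higher, 166 lower) and at an adjusted p under 0.01 (544 higher, 403 lower). Leaving out 1 library at a time gave 649 to 1227 higher and 404 to 1075 lower genes. DESeq2 called 1388 higher and 1341 lower, and without TMM the split turned to 949 higher and 1084 lower. The number of genes whose effect differed between cortex and epidermis was 0 to 1 with 1 of the 6 cortex libraries numbered 3 or 1 left out and 69 in DESeq2, and between cortex and pericycle 0 in those 6 fits and 317 in DESeq2. No library of the other cell types or of number 2 was left out there. Taken as shares of all reads, the differences of number 3 minus 1 turned to +0.3103 percentage points for mitochondrial genes and +0.0013 for plastid genes, against -6.34 and -0.19 as shares of gene counts. The causes were not tested. No paired analysis was possible because the replicate number is itself the term compared, so it cannot be the block; pairs of the same treatment label were blocked in its place, and without that label block 968 genes were higher and 803 lower. Of the 270 genes named by the rule, 0 reversed, and the number that lost the call was 84 in the fit of all 27 libraries, 65 with only the mock and flg22 labels, 49 at an adjusted p under 0.01, 0 to 18 under the other settings and 2 to 44 with 1 library left out. Genes named outside the rule were not recomputed singly. In the simulated data, with 200 changed genes and no effect of the label, 2-fold changes were mostly missed. Whether that share holds for the data, where 2017 genes were called, was not tested.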

Other observations

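The 3 cortex libraries numbered 2 belong to neither group. Their mean lay between those of numbers 3 and 1 for 970 (89.2%) of the genes that rose and 888 (95.6%) of those that fell, with median log2 differences of number 2 over number 1 of 0.85 and -0.69. Some immune and nutrient genes did not keep this order. The sulfate transporter SULTR1;2 had 318, 337 and 371 CPM at number 2, above all libraries of numbers 3 and 1. FRK1, which did not pass between numbers 3 and 1, had 26.4, 8.78 and 17.3 CPM at number 2. These values were picked after they were seen.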
